A study of Mus musculus with 16 samples.

Results

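Cell cycle and proliferation genes were followed in whole kidneys of mice with and without Klotho deficiency. The members are 34 genes chosen by name from known roles in DNA replication and cell division, with earlier results of these data known. All 34 were found among the 30277 genes of the deposited table. Of these, 10 serve DNA replication and nucleotide synthesis, and 24 are cyclins, mitotic proteins and other proliferation genes. The 16 mice came from 4 groups of 4 animals, and each library has its own animal name. All carried the C57BL/6J background, on which the Klotho mutation had been made congenic by more than 10 backcrosses. Controls were labelled as having healthy kidneys. Among controls, males 1 and 2 and all 4 females were heterozygous (+/Kl), while the other males, 3 and 4, carried 2 wild-type alleles (+/+). The 4 male and 4 female KlKl mice were homozygous (Kl/Kl) and were labelled as having renal disease. Ages were 46 to 59 days, with male KlKl 4 at 59 days, female control 3 at 57 days and female KlKl 4 at 52 days. Kidneys were perfused and flash frozen, and polyadenylated RNA was sequenced. The mutation is present in every cell of the animal, so a kidney difference is not tied by the design to a kidney cell type.

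A dividing cell first copies its DNA and then separates the copies. The Mcm2 to Mcm7 proteins form the ring-shaped helicase that opens DNA, Pcna is the sliding clamp that holds the polymerases, and Tyms, Rrm1 and Rrm2 make deoxynucleotides. Cyclins switch on their kinases at each transition, with cyclin B and Cdk1 starting mitosis, after which kinases, motors and the anaphase-promoting complex drive the chromosomes apart. In the adult kidney few tubule cells divide, and division is known to increase after tubular injury. Mitotic genes are expressed late in the cycle, and many of their promoters carry the cell cycle genes homology region (CHR) and CCAAT boxes, while promoters of replication genes often carry E2F sites.

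Promoters of 6 members are shown because these genes span the list, from replication (Mcm5, Pcna) to mitosis (Cdk1, Cdc20, Mki67, Top2a). Each is the 180 bases before the annotated start, read 5′ to 3′ on the gene's strand from RefSeq on GRCm38.p6, a different build from the mm39 of the expression table. Capitals mark letters that match 1 of 3 motifs on either strand: CHR (TTTGAA or else TTCGAA), the CCAAT box (CCAAT) and the E2F site (TTCCCGC or its variants, which are TTGGCGC as well as TTCGCGC and also TTGCCGC). The CHR form TTCGAA reads the same on both strands, and E2F and CCAAT letters can overlap. The windows lie at chr7:135716380-135716559 (Mki67, minus strand), chr11:99024190-99024369 (Top2a, minus strand), chr10:69352913-69353092 (Cdk1, minus strand), chr4:118437344-118437523 (Cdc20, minus strand), chr8:75109329-75109508 (Mcm5, plus strand) and chr2:132253181-132253360 (Pcna, minus strand).
Mki67: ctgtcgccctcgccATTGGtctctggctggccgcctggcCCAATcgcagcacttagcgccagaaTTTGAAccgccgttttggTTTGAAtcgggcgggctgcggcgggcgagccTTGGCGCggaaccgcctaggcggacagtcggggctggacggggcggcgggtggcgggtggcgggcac
Top2a: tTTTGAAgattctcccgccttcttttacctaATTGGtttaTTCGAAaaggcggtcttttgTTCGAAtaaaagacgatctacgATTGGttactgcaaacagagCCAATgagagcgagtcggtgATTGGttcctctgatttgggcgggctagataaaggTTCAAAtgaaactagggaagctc
Cdk1: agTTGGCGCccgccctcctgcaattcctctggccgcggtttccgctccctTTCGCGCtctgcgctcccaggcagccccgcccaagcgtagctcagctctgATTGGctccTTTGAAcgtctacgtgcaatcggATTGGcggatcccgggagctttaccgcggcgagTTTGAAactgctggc
Cdc20: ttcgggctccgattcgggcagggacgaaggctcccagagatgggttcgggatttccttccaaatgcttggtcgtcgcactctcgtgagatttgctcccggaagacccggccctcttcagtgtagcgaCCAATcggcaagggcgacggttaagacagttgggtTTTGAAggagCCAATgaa
Mcm5: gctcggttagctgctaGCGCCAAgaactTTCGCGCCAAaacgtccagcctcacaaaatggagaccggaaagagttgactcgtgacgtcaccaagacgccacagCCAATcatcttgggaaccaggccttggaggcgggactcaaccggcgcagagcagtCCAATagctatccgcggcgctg
Pcna: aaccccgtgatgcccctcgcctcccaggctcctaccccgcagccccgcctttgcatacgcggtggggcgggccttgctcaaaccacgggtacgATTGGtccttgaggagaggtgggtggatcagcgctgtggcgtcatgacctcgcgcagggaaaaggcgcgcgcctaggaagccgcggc

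In these 180 bases Top2a held 4 CHR matches, Mki67 and Cdk1 held 2 each and Cdc20 held 1, while Mcm5 and Pcna held 0. CCAAT letters occurred in all 6 windows, and E2F matches numbered 3 in Mcm5, 2 in Cdk1, 1 in Mki67 and 0 in Top2a, Cdc20 and Pcna. Across the longer RefSeq windows (250 bases before the start to 50 after it), 27 of the 34 members had an entry, with 29 windows. A member counted if any of its windows matched, while the shares of all windows count each window. Mcm7 held CHR letters in 1 of its 2 windows. CHR letters stood in 13 of 18 mitosis and cyclin genes (72.2%) and in 2 of 9 replication genes (22.2%), against 19.2% of all 32851 windows. E2F letters stood in 3 of 18 (16.7%) and 6 of 9 (66.7%), against 9.57% of all windows. CCAAT letters stood in 15 of 18 (83.3%) and 8 of 9 (88.9%), against 37.4%. A match describes letters in a window and is not a measured site.

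Values are normalised RPM: reads recovered from the deposited TPM, per 1000000 reads of a library, scaled so that the typical gene has the same level in every library. Recovered depth was 8207772 to 20102946 reads, and every male library except male KlKl 3 was deeper than every female library. Female control 3 had the lowest depth and 4.83% of reads in ribosomal RNA genes, against 0.289% to 0.818% elsewhere. Kl averaged 497.7 ± 62.5 (SD, n = 4) in male controls and 38.7 ± 21.4 in male KlKl, and 202.8 ± 84.4 in female controls and 7.84 ± 4.59 in female KlKl. The Y-linked Ddx3y and Eif2s3y averaged 49.4 to 75.8 in the male groups and at most 0.140 in the female groups. The kidney markers Lrp2 and Umod averaged 1017 to 1823 and 1972 to 2867 over the 4 groups. The libraries carry sample numbers 17 to 24, and each number recurs in 1 male and 1 female library. Whether the sexes were sequenced apart is not given, so sex cannot be told apart from any such run or from depth.

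Most members were scarce. Per kilobase of exon, Pcna had the highest level at 13.5 ± 2.23 (SD over 16 libraries) normalised RPM, and its lowest library (9.59) lay above the highest library of the next gene, Mcm7 (4.24). Mcm7 averaged 3.48 ± 0.405, Mcm6 2.63 ± 1.17 and Tyms 2.12 ± 0.470 on the same scale, and these neighbours overlapped. The checkpoint kinase Bub1 was lowest at 0.0758 ± 0.0568, just under Cenpf at 0.129 ± 0.104. The median library held 494.8 reads of Pcna but 4.0 of Bub1 and 50.2 of Mki67. No member had 0 reads in any library. The limit that a count of 0 allows, 3 reads, was 0.156 to 0.407 normalised RPM. For testing, 33 members passed the filter and Bub1 did not, since only 3 libraries reached its minimum of 0.5 normalised RPM.

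**Figure D1:**
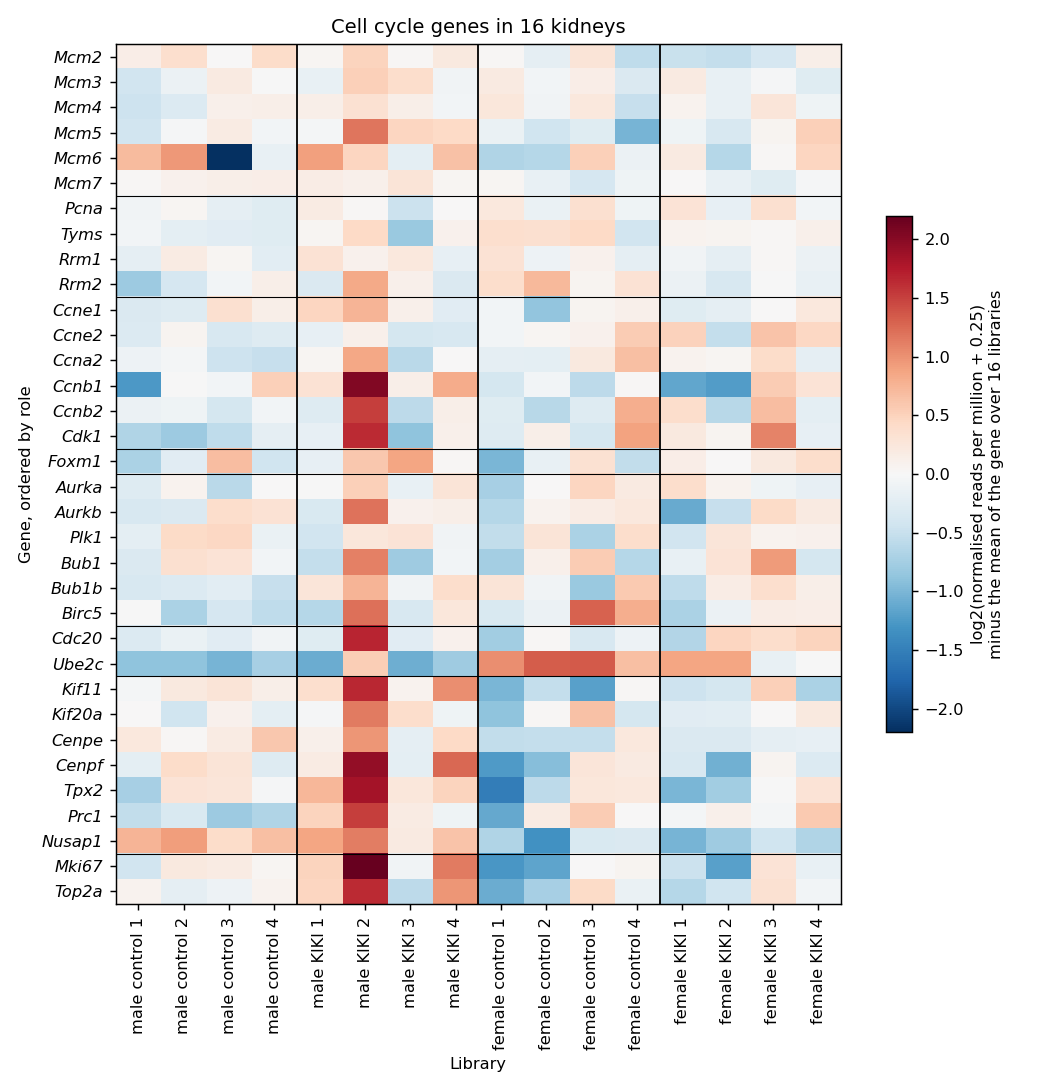
Level of each of the 34 genes (vertical axis, ordered by role) in each of the 16 libraries (horizontal axis), coloured by log2(normalised RPM + 0.25) minus the mean of that gene. Male KlKl 2 is the darkest red column and is the highest library for 24 of the 34 genes.

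The first comparison asked whether proliferation genes differ in male kidneys with renal disease. In males, 31 of 33 tested members had a higher mean in KlKl than in controls, with a median log2 difference of 0.36, but no member passed the test (limma on log2 values, Benjamini-Hochberg adjusted p under 0.05). Of all 18456 genes tested, 0.0271% passed in this comparison and 46.5% had a positive difference, with a median of -0.02. At an unadjusted p under 0.05, 5 members were higher (Prc1, Bub1b, Mcm5, Mki67 and Ccnb1) and 0 lower, against 2.62% and 2.76% of all genes. Prc1 and Bub1b did not overlap between the groups in the higher direction, as did 1.97% of all genes, and 0 members did so in the lower direction (2.42%). In bulk kidney RNA, fewer cells of a type and less RNA per cell cannot be told apart. Limma voom on the recovered reads also called 0 members. These counts moved with single animals. Without male KlKl 2, 24 of 33 members had a positive difference, the median was 0.17 and 1 member (Prc1) had an unadjusted p under 0.05. Without male KlKl 3 these numbers were 32 members, 0.47 and 11. That last count was 1 without male KlKl 4 or without male control 1.

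Among the genes of the chromosomes themselves, Mki67 encodes the Ki-67 protein used to stain cycling cells. Its level was 2.78, 4.46, 4.35 and 3.93 normalised RPM in male controls 1 to 4, and 5.43, 19.6, 3.58 and 8.67 in male KlKl 1 to 4. In females it was 1.41, 1.57, 3.80 and 3.97 in controls and 2.68, 1.51, 4.72 and 3.37 in KlKl. Male KlKl 1, 2 and 4 were above every male control and male KlKl 3 lay among them, and the female groups overlapped throughout. The log2 difference was 0.95 (SE 0.442) in males, with an adjusted p of 0.93 by limma, and 0.51 without male KlKl 2. Top2a, the topoisomerase that untangles replicated chromosomes, stood at 2.96, 2.39, 2.54 and 2.95 in male controls and at 3.95, 9.17, 1.77 and 5.65 in male KlKl. Its female values were 1.17, 1.57, 3.80 and 2.50 in controls and 1.70, 1.97, 3.55 and 2.65 in KlKl. The order of the 4 male KlKl animals was the same for Top2a as for Mki67, with male KlKl 3 lowest and male KlKl 2 highest.

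Of the cyclins and Cdk1, all 6 had a positive difference in males and 0 passed. Cdk1, the kinase that starts mitosis, stood at 0.845, 0.754, 0.933 and 1.26 in male controls and at 1.30, 5.18, 0.697 and 1.64 in male KlKl. In females Cdk1 stood at 1.17, 1.65, 1.08 and 2.98 in controls and at 1.77, 1.56, 3.46 and 1.29 in KlKl. Outside male KlKl 2 the highest value came from a female KlKl kidney, and the genotypes overlapped in both sexes. Ccnb1, the cyclin B partner of Cdk1, stood at 0.0724, 0.522, 0.495 and 0.864 in male controls and at 0.715, 2.92, 0.594 and 1.12 in male KlKl. Its female values were 0.345, 0.495, 0.271 and 0.536 in controls and 0.102, 0.0822, 0.884 and 0.707 in KlKl. Several of these Ccnb1 values, in male control 1 and female KlKl 1 and 2 among them, are below the 3-read limit. The male log2 difference of Ccnb1 was 1.02 (SE 0.481), with a limma adjusted p of 0.93, and was 0.62 without male KlKl 2.

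The earlier cyclins were flatter. Ccna2, the S phase and G2 cyclin, stood at 2.96, 3.09, 2.25 and 2.18 in male controls, and at 3.32, 5.99, 2.04 and 3.23 in male KlKl. In females Ccna2 stood at 2.77, 2.72, 3.75 and 5.18 in controls, and at 3.38, 3.31, 4.32 and 2.77 in KlKl. Male KlKl 2 was again highest, next to a female control. Ccne1 and Ccne2, the cyclins of the entry into S phase, had male log2 differences of 0.30 and 0.02. Ccne1 stood at 0.362, 0.377, 0.726 and 0.579 in control males, 0.803, 1.03, 0.570 and 0.394 in KlKl males, 0.484, 0.165, 0.543 and 0.576 in control females and 0.386, 0.411, 0.519 and 0.643 in KlKl females. Ccne2 stood at 2.04, 2.69, 1.96 and 2.07 in control males, 2.24, 2.79, 1.92 and 1.96 in KlKl males, 2.44, 2.67, 2.78 and 3.91 in control females and 3.75, 1.71, 4.09 and 3.63 in KlKl females. Ccne2 was the member of this group that male KlKl 2 did not lead, since 4 female kidneys had more. Ccnb2, another B-type cyclin, ranged from 0.493 to 3.02 over the 16 libraries.

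Prc1, which bundles the microtubules between separating chromosomes, had the smallest male p of the members. It stood at 0.900, 1.08, 0.713 and 0.806 in male controls and at 2.12, 4.55, 1.65 and 1.33 in male KlKl. Female Prc1 stood at 0.523, 1.66, 2.22 and 1.45 in controls and at 1.37, 1.57, 1.38 and 2.27 in KlKl. All 4 male KlKl kidneys were above all 4 male controls, and the female groups overlapped. The male log2 difference was 1.11 (SE 0.352, unadjusted p = 0.0057) with a limma adjusted p of 0.61, and it was 0.78 without male KlKl 2. Bub1b, the spindle checkpoint protein BubR1, stood at 0.845, 0.879, 0.933 and 0.737 in male controls and at 1.42, 2.11, 1.08 and 1.58 in male KlKl, again without overlap. Its female values overlapped, at 1.45, 1.07, 0.542 and 1.83 in controls and 0.694, 1.32, 1.56 and 1.29 in KlKl. The male difference of Bub1b was 0.68 (SE 0.289), with a limma adjusted p of 0.91. Prc1 overlaps Rccd1 on the genome, and whether the counting used strand is not given, so their reads cannot be told apart.

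Kif11 and Cenpf show the same male animals at the top. Kif11, the motor that pushes spindle poles apart, stood at 0.906, 1.13, 1.19 and 1.05 in male controls and at 1.30, 3.52, 1.01 and 2.17 in male KlKl. In females Kif11 stood at 0.345, 0.578, 0.271 and 0.961 in controls and at 0.617, 0.658, 1.47 and 0.482 in KlKl. Cenpf, a protein of the kinetochore, stood at 1.39, 2.26, 2.07 and 1.32 in control males, 1.91, 7.01, 1.39 and 4.34 in KlKl males, 0.553, 0.743, 2.03 and 1.92 in control females and 1.23, 0.658, 1.73 and 1.29 in KlKl females. Male KlKl 2 and 4 were the top pair for both genes. Foxm1, the transcription factor of the G2 and M phase genes, had its highest values elsewhere, in male KlKl 3 and male control 3. It stood at 0.664, 1.00, 2.12 and 0.843 in control males, 1.05, 1.99, 2.46 and 1.25 in KlKl males, 0.484, 1.07, 1.63 and 0.769 in control females and 1.39, 1.23, 1.47 and 1.69 in KlKl females.

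The mitotic kinases were also scarce. Aurka, the Aurora kinase of the spindle poles, ranged from 0.691 to 1.99. Aurkb, the Aurora kinase of the chromosomal passenger complex, ranged from 0.0771 to 1.37 and its partner Birc5 (survivin) from 0.691 to 3.53. Plk1, a further mitotic kinase, ranged from 0.407 to 1.22 and had a male log2 difference of -0.11. Plk1 and Mcm2 were the 2 members with a negative male difference. Bub1, not tested, ranged from 0.0634 to 0.911. Cdc20, which activates the anaphase-promoting complex, ranged from 0.760 to 5.24. Kif20a, a motor of cytokinesis, ranged from 0.587 to 3.18, Tpx2, a spindle assembly factor, from 0.138 to 3.70, and Cenpe, a kinetochore motor, from 1.87 to 5.80. Male KlKl 2 held the maximum of Aurka, Aurkb, Bub1, Cdc20, Kif20a, Tpx2 and Cenpe. Aurkb, Bub1 and Tpx2 have library values under the 3-read limit. So do Ccne1, with 2 reads in female control 2, and Kif11, with 2 reads in female control 3. Cdc20 overlaps Elovl1, Ccna2 overlaps Exosc9, Kif20a overlaps Cdc23, Ccne2 overlaps Ints8 and Mcm7 overlaps Cops6 and Ap4m1, so these reads could also be shared.

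Replication genes differed less between the male groups than the mitotic genes did in their medians: 9 of 10 had a positive difference with a median of 0.21, against 22 of 23 and 0.50 for the tested cyclin, mitosis and other members. The contrast between replication and mitosis genes was not tested. Mcm5, a helicase subunit, stood at 2.17, 2.95, 3.42 and 2.84 in control males, 2.90, 7.12, 4.24 and 4.14 in KlKl males, 2.69, 2.15, 2.44 and 1.34 in control females and 2.78, 2.30, 3.12 and 4.42 in KlKl females. It was the member with the smallest p in the mean of both sexes, at a log2 difference of 0.55 (SE 0.188, unadjusted p = 0.0096) and a limma adjusted p of 0.62. Mcm2 stood at 9.78, 11.4, 8.91 and 11.7 in control males, 9.08, 12.5, 9.0 and 10.3 in KlKl males, 9.05, 7.68, 10.9 and 5.96 in control females and 6.24, 6.09, 6.75 and 9.73 in KlKl females. For Mcm2 the genotypes overlapped in both sexes. Mcm6 was the least even replication gene, at 17.7, 21.2, 1.76 and 9.59 in control males, 20.3, 15.1, 9.25 and 17 in KlKl males, 6.77, 6.94, 15.6 and 9.90 in control females and 12.4, 6.91, 11.0 and 15.1 in KlKl females. The 2 wild-type male controls, 3 and 4, had less Mcm6 than the 2 heterozygous ones. These pairs also differ in the series of their library names, described below, so genotype and series cannot be told apart here.

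Pcna, the most abundant member per length, stood at 30.2, 32.8, 28 and 26.7 in control males, 36.3, 32.4, 23 and 32.2 in KlKl males, 37.8, 28.8, 41.1 and 29.9 in control females and 39.4, 28.2, 41.1 and 30.8 in KlKl females. Its 4 groups overlapped, and male KlKl 2 was not its highest male. The log2 difference of Pcna was 0.06 (SE 0.161) in males and 0.02 in females. The remaining replication genes are given by their range over the 16 libraries: Mcm7 from 11.8 to 18.8, Rrm1 from 10.7 to 15.8, Mcm4 from 4.23 to 7.69, Mcm3 from 2.60 to 5.18 and Tyms, the thymidylate synthase, from 7.06 to 17.2. Male KlKl 2 held the maximum of Mcm3 and Mcm4, and it ranked 2 for Tyms, 5 for Mcm7 and 6 for Rrm1. In none of these 5 was the male or the female genotype difference past the threshold.

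**Figure D2:**
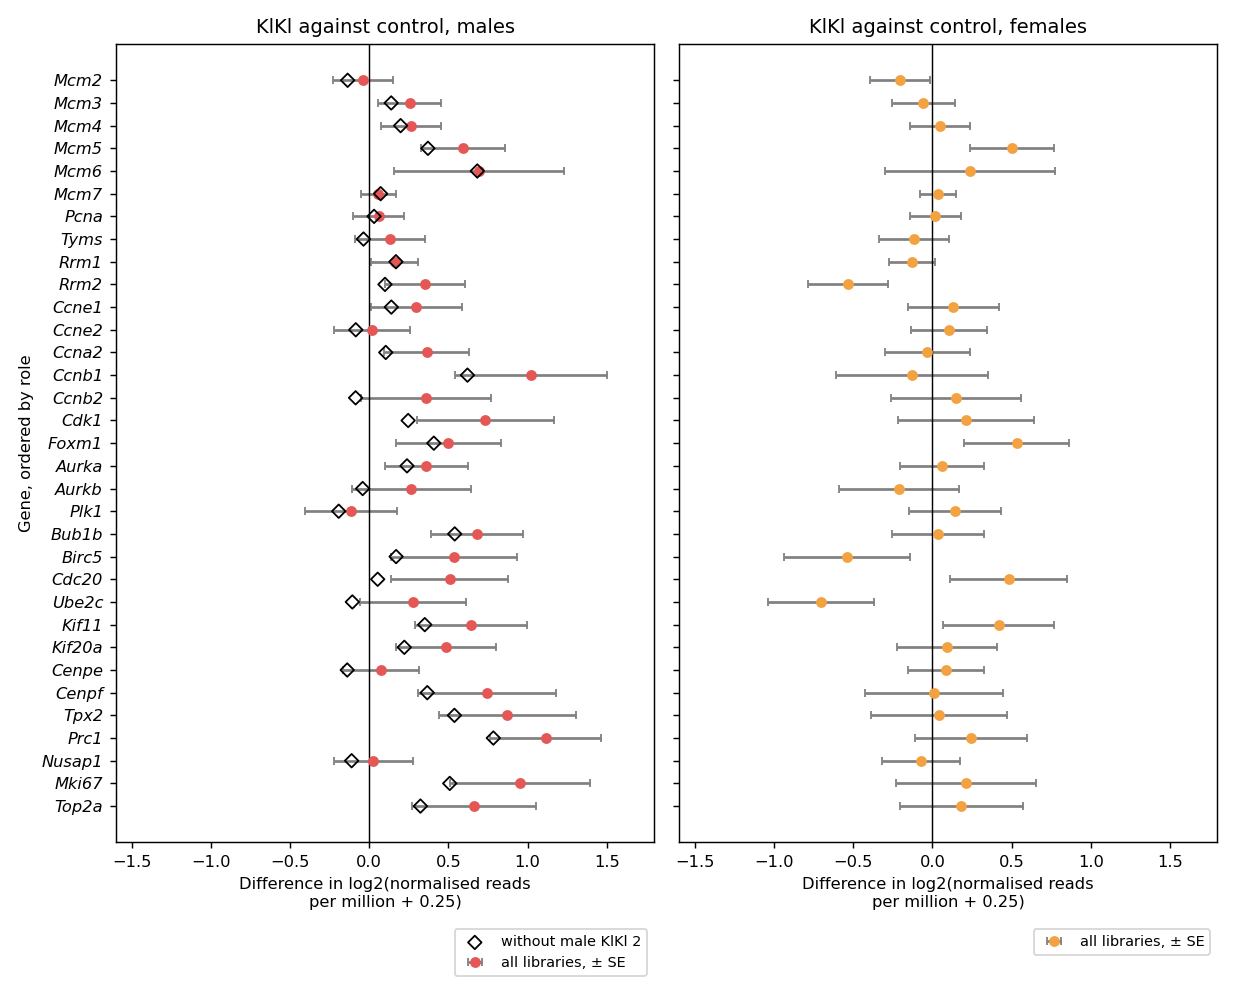
Log2 difference between KlKl and controls (horizontal axis, ± SE from limma) for the 33 tested genes (vertical axis, ordered by role), in males on the left and females on the right. Male differences lie right of 0 for 31 of 33 genes, and the open diamonds show that 24 of 33 do so without male KlKl 2.

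In females the differences were smaller at the median. Of 33 tested members 22 had a positive difference, the median was 0.05 and none passed the limma test, where 0.0163% of all genes passed and 51.6% had a positive difference. At an unadjusted p under 0.05, 0 members were higher and 1, Rrm2, was lower, against 2.03% and 1.55% of all genes. Rrm2, the small subunit of ribonucleotide reductase, stood at 5.66, 7.16, 4.48 and 5.38 in female controls and at 3.91, 3.29, 4.24 and 3.78 in female KlKl. In males Rrm2 stood at 2.36, 3.27, 4.09 and 4.69 in controls and at 3.37, 7.86, 4.64 and 3.40 in KlKl. The female groups did not overlap, as was the case in the lower direction for 1.15% of all genes, and the male groups did overlap. The female log2 difference was -0.53 (SE 0.252), with a limma adjusted p of 0.97. The count of positive differences was 13 of 33 without female KlKl 3 and 16 of 33 without female control 1, with a median of -0.05 in the former.

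Over both sexes together, 28 of 33 members had a positive mean difference, with a median of 0.21, against 49.9% of all genes. None passed, where 0.0433% of all genes passed. Unadjusted p values under 0.05 were found for 4 higher members (Mcm5, Prc1, Foxm1 and Kif11) and for no lower one, against 2.88% and 3.33% of all genes. Without male KlKl 2 the positive count was 24 and the median 0.12. The male effect minus the female effect was positive in 29 of 33 members, with a median of 0.30, and no member passed limma's test of that difference, nor did any gene (0.00%), while 2.66% of all genes had an unadjusted p under 0.05 and 46.4% had a positive difference. Rrm2 was the 1 member with an unadjusted p under 0.05 there, on the higher side as for 1.27% of all genes (1.39% lower), at 0.89 (SE 0.356), with an adjusted p of 1.00. Without male KlKl 2 the median of these differences was 0.14 and 0 members had such a p.

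How far male KlKl 2 stood from the other kidneys was then counted. This library was chosen after its values were seen, so the counts are a description with no test. It was the highest of the 16 libraries for 24 of 34 members (70.6%), against 5.03% of all genes tested, and above every other male for 28 of 34 (82.4%), against 10.2%. Its level exceeded 2 times the male control mean in 20 of 34 members (58.8%), against 2.09% of all genes. The median ratio to the male control mean was 2.99 for the 24 cyclin, mitosis and other members and 1.29 for the 10 replication members, and 0.984 for all genes.

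Summed over the 24 cyclin, mitosis and other members, male KlKl 2 held 103.9 normalised RPM. The other male KlKl kidneys held 41.8, 33.1 and 52.0, the male controls 32.4 to 37.4 and the 8 female kidneys 25.1 to 45.8. Without male KlKl 2, the male KlKl kidneys averaged 42.3 against 35.4 ± 2.14 (SD, n = 4) in male controls. The sum over the 10 replication members was 135.0 in male KlKl 2 and 93.2 to 128.2 elsewhere. By role, the chromosome proteins summed to 28.8 against a male control mean of 6.59, the anaphase-promoting complex partners to 8.09 against 2.16, the cyclins and Cdk1 to 20.9 against 7.53, the spindle motors and microtubule proteins to 33.4 against 13.3, and the mitotic kinases and checkpoint to 10.7 against 4.64.

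**Figure D3:**
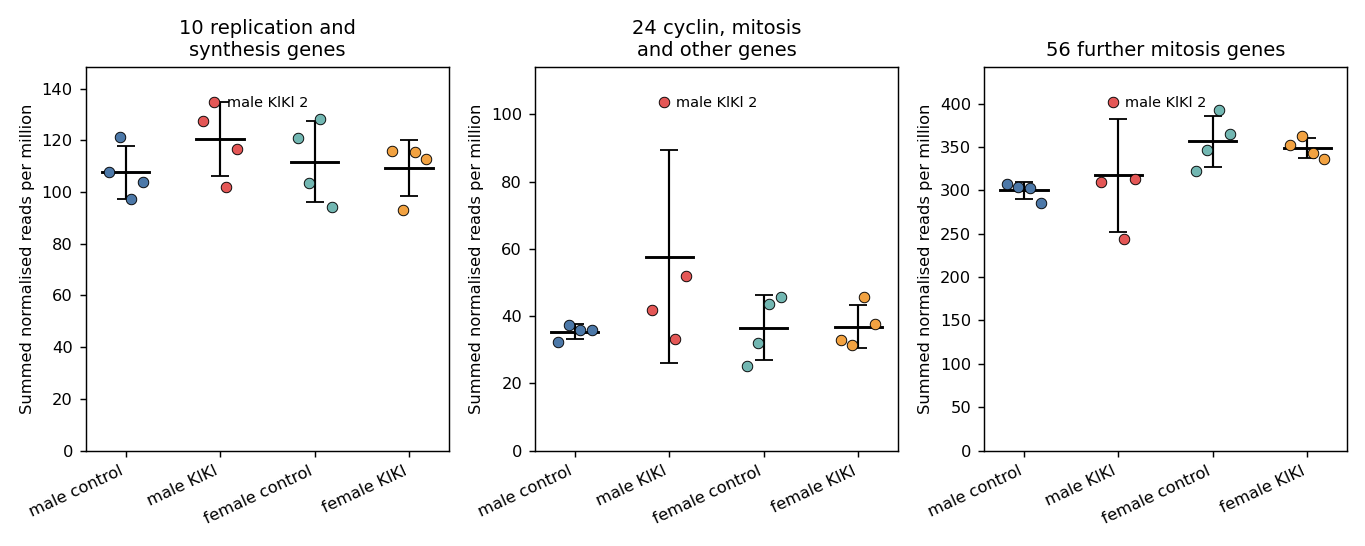
Summed normalised RPM (vertical axis from 0) of 3 gene lists in each library (points), by group (horizontal axis), with the group mean and SD as bars (n = 4). Male KlKl 2 lies at 103.9 in the middle panel, where the other 15 libraries lie between 25.1 and 52.0.

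Other measures of male KlKl 2 were read beside this. Its depth of 17439786 reads, age of 49 days, mitochondrial share of 12.6% and ribosomal RNA share of 0.682% lay within the range of the other males (13025604 to 20102946 reads, 46 to 59 days, 9.72% to 17% and 0.289% to 0.773%). Several red blood cell genes were also at their highest of the 16 libraries there: Hbb-bs at 220.2 against 116.2 in the next library, Hba-a1 at 64.5, Hbb-bt at 34.5, and Alas2, the haem synthesis enzyme of red cell precursors, at 4.05 against 1.70. Tfrc, the transferrin receptor, which dividing cells of many kinds also express, was highest there too, at 108.1 against 81.5. Other genes of the same list were not: the red cell transcription factor Klf1 was at 1.99 against a male control mean of 2.53, Slc4a1 at 33.4 against 41.6 and Epb42 at 0.911 against 0.978. The table held 9 of the 10 erythroid markers, which summed to 467.8 in male KlKl 2, to 125.8 to 282.9 in the other male KlKl, to 128.7 to 205.6 in male controls, to 124.7 to 258.3 in female controls and to 98.9 to 154.5 in female KlKl. Their part in the result was not tested.

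Immune markers did not single out that library. The 10 macrophage markers summed to 307.5 in it (221.2 to 342.9 in males), the 7 T and NK cell markers to 4.14 (2.33 to 5.02), the 6 B and plasma cell markers to 4.45 (3.58 to 9.29) and 3 neutrophil markers to 1.03 (0.460 to 10.1). The 6 fibroblast markers were highest among males in male KlKl 2, at a sum of 222.1. They summed to 131.2 to 197.3 in male controls, 142.9 to 188.0 in the other male KlKl and 282.0 to 339 in females. The 8 markers of injured tubule, among them Havcr1, Lcn2 and Spp1, summed to 657.3 to 1051 in male controls and to 1070 to 1688 in male KlKl, with male KlKl 2 highest, and to 2016 to 2383 in female controls and 2335 to 2877 in female KlKl. All 8 had a positive male difference, with a smallest limma adjusted p of 0.24. Spp1, at 23737.3 reads in male KlKl 2, made up most of that library's sum. Male KlKl 3, at lower depth, had more reads than male KlKl 2 of Lcn2 (245.9 against 116) and Krt20 (62 against 33). The same held for Vcam1 (318.8 against 288.8) and Sox9 (43 against 24), while Havcr1, Spp1, Clu and Vim went the other way. The part of the fibroblast and injured tubule markers in the members' values was not tested.

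The library names fall into 2 series, CFK (replicates 1 and 2 of each group) and CFdk (replicates 3 and 4). Within CFK, 31 of 33 members were positive in males with a median of 0.675, and within CFdk 20 of 33 with a median of 0.0929. Of all genes 48% and 47.4% were positive there. In females 20 of 33 members (60.6%) were positive within CFK, at a median of 0.0931, and 18 of 33 (54.5%) within CFdk, at 0.0202. The shares of all genes were 49.1% and 51.9%. Male KlKl 2 is a CFK library, and each of these values rests on 2 animals a group. In males the CFK controls are the heterozygous ones and the CFdk controls the wild-type ones. Name series and control genotype therefore cannot be told apart in males.

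**Figure D4:**
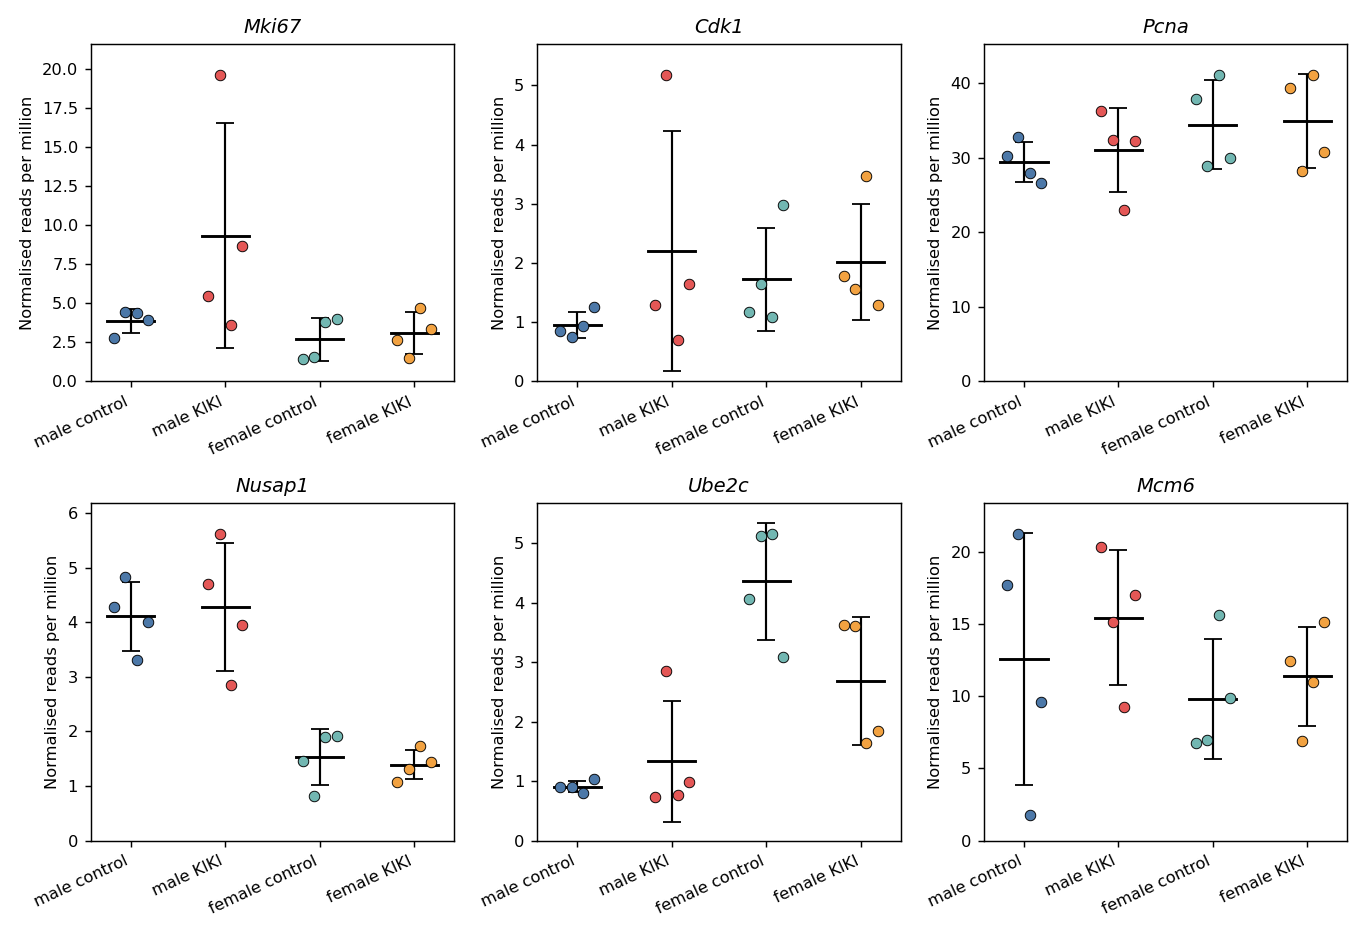
Normalised RPM (vertical axes from 0) of Mki67, Cdk1, Pcna, Nusap1, Ube2c and Mcm6 in each library (points), by group (horizontal axis), with group means and SD as bars (n = 4). Male KlKl 2 is apart at 19.6 for Mki67 and 5.18 for Cdk1, while Nusap1 and Ube2c differ by sex.

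Sex was the second factor of the design. Between control kidneys of males and females 39.1% of all genes passed the limma test (3979 higher and 3243 lower in males), and 2 of 33 members did. Between KlKl kidneys 25.9% passed (2637 higher and 2137 lower), and 5 of 33 members did. Both member shares are below the background. That background covers genes of all levels while most members were scarce, and shares among genes of like level were not computed. Nusap1, which attaches microtubules to chromosomes, and Ube2c, the ubiquitin-conjugating enzyme of the anaphase-promoting complex, passed in both, in opposite directions. No overlap of the sexes in controls was seen for 1 member higher in males (20.2% of all genes) and 1 lower (15.2%), and in KlKl for 2 higher (Nusap1 and Mcm7, against 16.4%) and 0 lower (13.8%).

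Nusap1 stood at 4.29, 4.83, 3.32 and 4.00 in male controls and at 4.69, 5.62, 2.85 and 3.94 in male KlKl. In females Nusap1 stood at 1.45, 0.826, 1.90 and 1.92 in controls and at 1.08, 1.32, 1.73 and 1.45 in KlKl. Every male kidney was above every female kidney, and genotype made little difference, at 0.03 (SE 0.248) on the log2 scale in males and -0.07 in females. The log2 difference between males and females was 1.34 (SE 0.248) in controls, with a limma adjusted p of 0.00058, and 1.44 in KlKl, with an adjusted p of 0.00073. Nusap1 lies at chr2:119448779-119481726 on the plus strand of mm39 and overlaps Oip5.

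Ube2c stood at 0.906, 0.899, 0.798 and 1.03 in male controls and at 0.741, 2.85, 0.760 and 0.985 in male KlKl. Female Ube2c stood at 4.06, 5.12, 5.15 and 3.09 in controls and at 3.62, 3.61, 1.64 and 1.85 in KlKl. Male KlKl 2 is the only male above any female kidney. The log2 difference between males and females was -1.97 (SE 0.335) in controls, with a limma adjusted p of 0.00031, and -0.99 in KlKl, with an adjusted p of 0.038. Without male KlKl 2 the KlKl difference was -1.37, with a limma adjusted p of 0.0038, and without male KlKl 1 it was -0.82 and did not pass. The female genotype difference of Ube2c was -0.70 (SE 0.335), with an adjusted p of 0.97. Ube2c lies at chr2:164611818-164620743 on the plus strand of mm39 and overlaps Tnnc2, so reads of the pair may be shared.

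Mki67, Kif11 and Cenpf were also higher in male than in female KlKl kidneys, Mki67 by 1.34 (SE 0.442, limma adjusted p 0.034), Kif11 by 1.04 (SE 0.352, adjusted p 0.038) and Cenpf by 1.21 (SE 0.435, adjusted p 0.049). None of them passed without male KlKl 2, where the differences were 0.90, 0.75 and 0.83 and the limma adjusted p values 0.12, 0.14 and 0.17. Nusap1 and Ube2c were then the 2 members called. In controls the differences of Mki67, Kif11 and Cenpf were 0.60, 0.82 and 0.48, and none passed. With the deposited TPM scaling kept, all genes shifted toward males, at a median of 0.30 in controls and 0.42 in KlKl. In KlKl 7450 of all genes were then called higher and 440 lower. Among the members 14 were called higher and 0 lower under that same shift, and whether they exceed it was not tested. Ube2c in KlKl was then -0.61 and did not pass.

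Some cell type markers also differed by sex. In controls, 4 of 7 proximal tubule markers were higher in males, and 5 of 6 fibroblast and 3 of 6 endothelial markers were lower, by the same test. Of all 18456 genes 3979 were higher and 3243 lower (39.1% in either direction). Also lower were 2 of 4 thick limb and distal tubule, 2 of 10 macrophage, 1 of 4 podocyte, 1 of 4 collecting duct and 1 of 6 T and NK cell markers. Of 8 erythroid markers 1 was higher, and 0 of 3 B and plasma cell and 0 of 2 neutrophil markers passed. Of the 8 injured tubule markers 6 were lower and 1 was higher in males. Their part in the differences of Nusap1 and Ube2c was not tested.

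Further genes of the cycle, from lists of the same roles, were read in the same fit. Of 49 tested mitosis genes outside the members, 44 had a positive male difference with a median of 0.31, and 7 were higher and 1 lower at an unadjusted p under 0.05, against 46.5% of all genes positive and 2.62% and 2.76% at such a p. Without male KlKl 2, 32 of the 46 that could then be tested were positive, the median was 0.18, and 3 were higher and 1 lower at such a p. The sum over all 56 listed mitosis genes, tested or not, was highest in male KlKl 2 at 402.4, against 243.7 to 312.7 in the other males, and 322.7 to 392.1 in females. In females 27 of 49 were positive, with a median of 0.02. Origin licensing and firing genes were positive in 11 of 17 in males (median 0.03), replication fork and nucleotide genes in 15 of 22 (0.13), G1 and S control genes in 9 of 20 (-0.01) and Cdk inhibitors in 3 of 6. No gene of these 5 lists passed in males, in females, in their mean or in the difference between the sexes. Cdkn1a, which encodes the Cdk inhibitor p21, averaged 5.40 ± 1.09 (SD, n = 4) in control males, 8.71 ± 2.24 in KlKl males, 7.33 ± 1.59 in control females and 8.93 ± 1.53 in KlKl females. Its log2 difference was 0.65 (SE 0.208) in males and 0.47 in the mean of both sexes, with limma adjusted p values of 0.62 and 0.55.

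The smallest p of the other lists in that mean came from Kif20b at -0.98, Mybl2 at 0.58, Pold1 at 0.42 and Gins2 at 0.23, with adjusted p values by limma of 0.61, 0.63, 0.70 and 0.74. Between the sexes in controls 8 of the 49 mitosis genes passed, 2 higher and 6 lower in males. Kif20b, a motor of cytokinesis, was 3.09 (log2, SE 0.459) higher in males, and the centrosome kinase Nek2 was 1.44 higher. Kif23, another motor of cytokinesis, differed by -1.36 and Pttg1, which encodes securin, by -0.995 (limma adjusted p at most 0.0030 for these 4). Among G1 and S control genes 7 of 20 passed, 5 higher and 2 lower in males, with Rbl2 at 1.36, E2f6 at 0.61, E2f3 at 0.63 and the D cyclin Ccnd2 at -0.97. Of 17 licensing and firing genes 3 were higher in control males, Orc2, Orc3 and Mcm10 by 0.75, 0.71 and 1.17, and 3 were lower, Orc4 at -0.47, Gins2 at -0.39 and Cdc7 at -0.68. Gins2 and Cdc7 were added here after their values were seen. Of 22 fork and nucleotide genes 3 were higher and 4 lower in control males, and the DNA methyltransferase Dnmt1 was at 0.52, Prim2 at 0.63 and Dut at -0.37, while Pola2 was at -0.46 in KlKl. Of the Cdk inhibitors, Cdkn1c was at -0.72 in controls and Cdkn2b at -0.86 in KlKl. All these named sex differences passed at the threshold, against the same 39.1% of all genes in controls and 25.9% in KlKl.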

How the data were processed

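Polyadenylated RNA of 16 kidneys was sequenced from libraries made with a directional kit, per the labels' protocols. The authors deposited 1 table of TPM for 30278 entries, of which 1 duplicate was dropped. Each column matched 1 library by name. Partek (software) and mm39 (genome build) are named in the submitters' processing notes. Not given in the sources used here are the aligner, the counting rule, its use of strand and the annotation release.

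The deposited TPM follow reads plus 0.0001 divided by the full gene span, introns included, scaled to a total of 309446. Reads were recovered from that relation, and of 161231 values under 20 reads 81.2% lay within 0.1 of a whole read. All read-based values rest on this inference. Reads were scaled with median-ratio size factors over 18343 genes and put per 1000000 reads (normalised RPM). Sums and levels were computed with Python 3.11.15.

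Genes with at least 0.5 normalised RPM in at least 4 libraries (18456) were tested with limma 3.58.1 (R 4.3.3, mean-variance trend) on log2(normalised RPM + 0.25), a scale that understates the change of low genes. The fit held 1 mean per group (12 residual degrees of freedom) and gave 6 contrasts. P-values are two-sided and adjusted by the Benjamini-Hochberg method over all genes, with a threshold of 0.05. They measure the spread between animals. The fit was tested on simulated data. Exon lengths came from GENCODE M21.

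The members and lists were chosen with earlier results of these data known. Values in every library are given for 12 fixed members, for those past the threshold and for the 3 with the smallest p in each comparison of KlKl with control. From further lists a gene is named if it passed (at most 4 per list), or had the smallest p of its list in the mean contrast. Of the marker lists, Gata1 and Ly6g were not matched. Alternatives changed the scaling, unit, pseudocount, filter, test, covariates and libraries used. A fit with limma voom on recovered reads without male KlKl 2 was added after that library was seen to stand apart. Intervals and limits for a count of 0 cover counting error only.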

Additional observations from a re-analysis of the deposited data

Results flagged for a closer look

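In groups of 4 libraries, a sample was singled out when its gap to the nearest other sample was a larger part of the group's range than Dixon's 95% criterion allows. Of 136 groups of single members 7 met this, and of 8 groups of summed levels 1 did. Chance alone gives about 1 in 20 groups. All values are normalised RPM.

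Male KlKl 2 was singled out for Cdc20, at 5.24 against 1.17 to 1.58 in the other male KlKl, and for Ube2c, at 2.85 against 0.741 to 0.985. It did not meet the criterion for any other member. Female control 4 was highest of its group for Ccnb2 at 1.73 and for Cenpe at 3.36, and lowest for Tyms at 9.38. Male control 2 was highest for Ccne2 at 2.69. Female KlKl 1 was lowest for Cdc20 at 0.848. Female KlKl 2 was lowest for the sum of the 10 replication and synthesis members, at 93.2.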

How the results depend on the processing

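No member passed in any comparison of KlKl with control under any alternative, except Rrm2 in females with array weights (-0.84, adjusted p 0.043 by limma). Nusap1 passed under all 32 alternatives that could test it in both sex comparisons. Ube2c passed under 32 of 32 in controls and 22 of 32 in KlKl, Mki67 under 25, Kif11 under 23 and Cenpf under 13 in KlKl. In the main fit the log2 difference of Mcm6 between control males and females was slightly negative, no lower than -0.109, and did not pass. Its mean level there was 12.6 in males and 9.80 in females. With heterozygous controls only, this difference was 1.05 and passed (adjusted p 0.049 by limma). That setting leaves out male controls 3 and 4 together, and without male control 3 alone the value was 0.72 and did not pass (adjusted p 0.12).

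Counts of all genes passing were 5 in males, 3 in females, 8 in their mean, 0 for the difference between the sexes, 7222 for sex in controls and 4774 for sex in KlKl. They were 20 (males), 14 (mean) and 7890 (sex in KlKl) with the deposited TPM scaling, and 8 (males), 1 (females), 3 (mean) and 4236 (sex in controls) with log2(TPM + 1), which tested 2 members. Array weights gave 31, 370, 95, 7, 11418 and 8234. The male count was 2 without the trend and 8 with the name series as covariate. Heterozygous controls only gave 3 (males), 3 (mean) and 4046 (sex in controls). Without female control 3 and male KlKl 3 the counts were 14 (males), 13 (mean), 3 (difference) and 7415 (sex in KlKl). Voom gave 4 in the mean, and 5 without male KlKl 2. The cause of these moves was not tested. Leaving out 1 library gave 2 to 9 (males), 2 to 7 (females), 5 to 9 (mean), 0 to 2 (difference), 5843 to 7683 (sex in controls) and 3196 to 6480 (sex in KlKl).

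Replicate numbers are not stated to pair the animals. Deviations of same-numbered libraries correlated between -0.193 and 0.224, which cannot exclude a pairing. With the replicate number as a block the counts were 5, 3, 7, 0, 6834 and 4373. Other scalings moved the male median of all genes, to 0.12 for RPM of the total and 0.27 for the deposited TPM, and the members were then positive in 33 of 33, at medians of 0.49 and 0.64. The split of male calls was 3 higher and 2 lower, and 19 and 1 with the deposited TPM scaling. Depth limits the scarcest members: 3 reads, the limit of a count of 0, were 0.407 normalised RPM in female control 3 and 0.156 to 0.288 elsewhere, close to the level of Bub1, Aurkb and Ccnb1.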
